A study of Mus musculus with 6 samples.

Results

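The Fc gamma receptors of the mouse and the genes that carry their signal were followed in bone marrow-derived macrophages (BMDMs) with and without Acly, the enzyme that makes cytosolic acetyl-CoA from citrate. The group was set by name and comprised 9 genes of the 24562 gene symbols in the count table: the receptors Fcgr1, Fcgr2b, Fcgr3 and Fcgr4, the signalling chains Fcer1g and Tyrobp, the lipid receptor Trem2, and the tyrosine kinases Lyn and Syk. All 9 were found in the table and all 9 passed the filter on low counts. The data were 6 mRNA libraries of unstimulated BMDMs from C57Bl/6J mice, described as female in the series record, 3 control and 3 AclyM-KO. For its in vitro work in general, the study names marrow donors of both sexes. AclyM-KO mice carried floxed Acly alleles (Acly fl/fl) and a Cre recombinase under the Lyz2 promoter (LysMcre), which deletes Acly in the myeloid lineage. The control libraries carry the genotype label WT, and the study names Cre-negative Acly fl/fl littermates as controls of its marrow transplants. Whether the cells of the control libraries carried the floxed allele is not stated for these samples. Adult mice were used, and in both groups marrow was differentiated in medium conditioned by L929 cells, a fibroblast line that secretes the growth factor M-CSF. For its plots of single genes from these data, the study describes 3 technical replicates of cells pooled from 3 mice. The p-values below thus measure the spread between libraries and cannot cover the variation between mice. Genotype cannot be told apart from the pool of cells. All values come from bulk RNA, in which fewer cells of a type and less RNA per cell cannot be told apart.

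Fc gamma receptors bind the constant part of IgG on opsonised particles and immune complexes. The activating receptors Fcgr1, Fcgr3 and Fcgr4 have no signalling motif of their own and pair with the Fc receptor common gamma chain, encoded by Fcer1g, whose cytoplasmic tail holds an immunoreceptor tyrosine-based activation motif (ITAM). Src family kinases such as Lyn phosphorylate the tyrosines of this motif, Syk docks on them and is activated, and adaptors and lipid enzymes then drive phagocytosis and the oxidative burst. Fcgr2b instead holds an inhibitory motif (ITIM) in its own tail, which recruits phosphatases. Tyrobp, also called DAP12, is a second ITAM chain and serves Trem2, a receptor for lipids and lipoproteins on macrophages and microglia.

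The coding sequences of these motifs are shown first because they separate the activating chains from the inhibitory receptor. In GRCm38 (mm10), the pattern of an ITAM was found in Fcer1g and Tyrobp and in no other of the 9 genes. The Fcer1g motif takes codons 65 to 79 of 86 and is read on the minus strand from exons 4 and 5, chr1:171229889-171230072. The Tyrobp motif takes codons 92 to 106 of 114 and is read on the plus strand from exons 4 and 5, chr7:30415670-30417382. The pattern of an ITIM was searched in Fcgr2b only. The Fcgr2b ITIM takes codons 317 to 322 of 340 in exon 8, chr1:170961071-170961088, minus strand. The sequences run 5′ to 3′ along the spliced transcript, and capitals mark the tyrosine codons that are phosphorylated.
Fcer1g ITAM: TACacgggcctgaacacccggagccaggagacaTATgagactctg
Tyrobp ITAM: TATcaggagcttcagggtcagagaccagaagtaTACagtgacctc
Fcgr2b ITIM: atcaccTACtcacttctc

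In AclyM-KO macrophages, mRNA of Fcgr4 fell by 26.6%, that of Tyrobp by 18.3% and that of Lyn by 14.3%, and these 3 of the 9 genes passed the test. None of the 9 was higher. Fcgr3, Fcer1g and Trem2, which are among the 4 members with the highest levels per transcript length, had log2 fold changes of -0.03, -0.05 and 0.00. Genes were tested by quasi-likelihood in edgeR, with p-values adjusted by Benjamini-Hochberg over all 11470 genes and a threshold of 0.05. Over these genes, 12.3% passed, 5.65% as lower and 6.70% as higher in AclyM-KO macrophages, against 3 lower and 0 higher of 9 here. The median log2 fold change (AclyM-KO over control) was -0.22 over the 9 genes and 0.00 over all genes tested. The control and AclyM-KO ranges were apart in 4 of the 9 genes, Fcgr4, Syk, Lyn and Tyrobp, all with the AclyM-KO libraries lower, whereas 32.8% of all genes tested had groups that did not overlap, 16.6% with AclyM-KO lower. Levels of a gene are given as CPM, its count as a share of the TMM-normalised library size and scaled alike in every library.

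**Figure D1:**
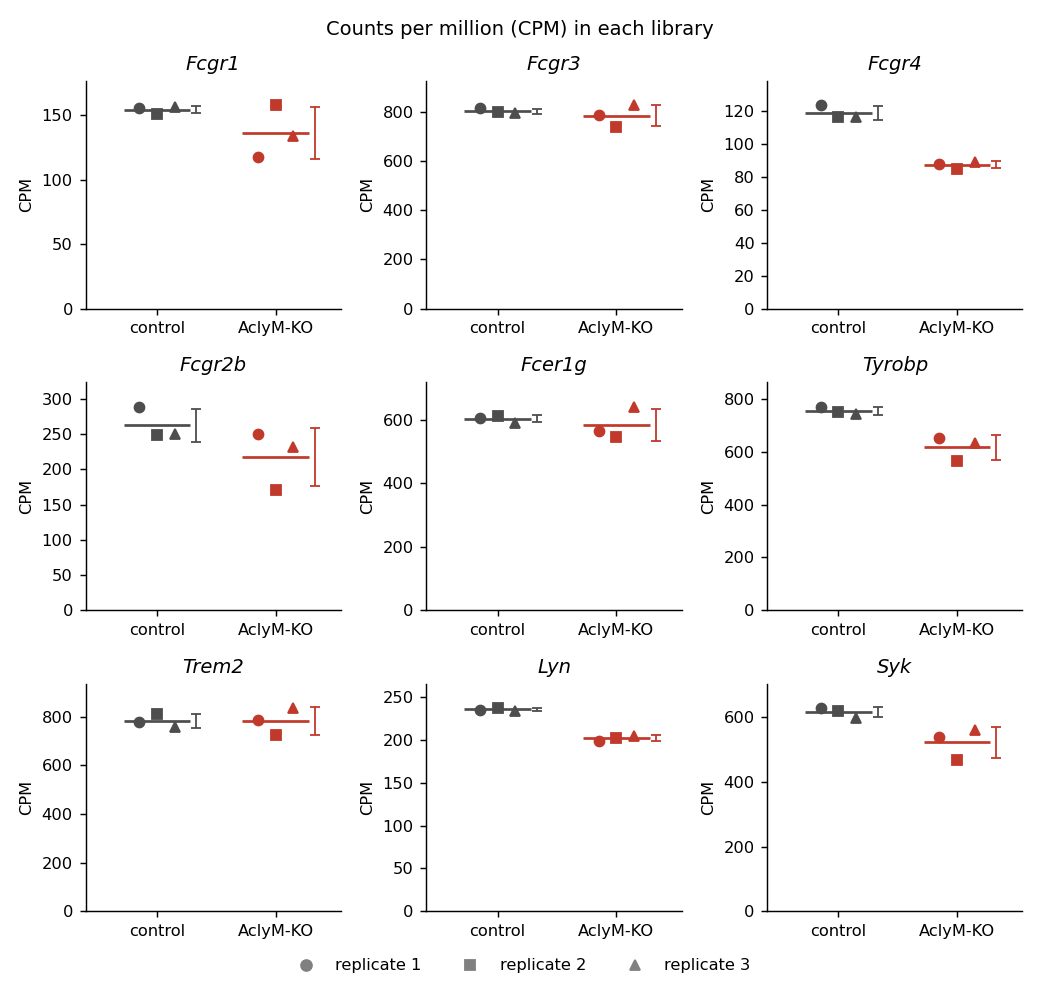
Each panel plots 1 gene as TMM-normalised CPM (linear axis from 0) in the 3 control and 3 AclyM-KO libraries. Symbols mark the replicate number, horizontal lines the group mean and bars the SD (n = 3). The AclyM-KO points lie below all control points for Fcgr4, Tyrobp, Lyn and Syk, and among or around them for the other 5 genes.

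Total counts over all transcripts lay between 19327459 and 23582992 in 5 libraries and reached 44507233 in AclyM-KO replicate 2, which also differed most from its own group (chi-square per degree of freedom 23.6 and 25.2 against AclyM-KO replicates 1 and 3, compared with 8.77 between those and 3.30 to 6.97 between control libraries). No pair of libraries agreed within sampling noise, so none was treated as a repeat deposit of another. AclyM-KO replicate 2 was the lowest of the 6 libraries in 7 of the 9 genes, as it was in 27.0% of all genes tested. Fcgr1 was the exception in the other direction, with its highest value there. Without this library, 5 of the 9 genes were lower and none higher, while the share of lower genes among all genes tested went to 8.92%. Without control replicate 1, 2 or 3, 1 of the 9 genes was lower, beside 2.02%, 2.44% and 2.10% of all genes tested. Fcgr4, Tyrobp, Lyn, Fcgr1 and Syk made up the 5. With its counts thinned to the median total of the other libraries instead, 3 of the 9 were lower and none higher, with log2 fold changes of -0.47 for Fcgr4, -0.29 for Tyrobp and -0.23 for Lyn. Acly itself, the check of the labels, fell from 229.7 to 96.8 CPM (log2 fold change -1.25, standard error 0.066, adjusted p = 5.58e-07), and its 3 AclyM-KO libraries were all below the control libraries.

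Among the activating receptors, Fcgr4 differed most. Fcgr4 (NM_144559, 5 exons, chr1:171018926-171029761, plus strand) encodes a receptor for IgG complexes that is found on monocytes, macrophages and neutrophils. It had 123.6, 116.6 and 116.8 CPM in the control libraries. It had 87.9, 85.2 and 89.3 CPM in AclyM-KO replicates 1, 2 and 3. The groups were far apart compared with their spread, since the highest AclyM-KO library was well below the lowest control library. The means were 119.0 ± 3.97 CPM in control and 87.5 ± 2.09 CPM in AclyM-KO macrophages (SD, n = 3 each). On the log2 scale Fcgr4 differed by -0.45 (standard error 0.067, 95% interval -0.59 to -0.30, adjusted p = 0.00183 in edgeR). It passed under each of the 17 alternative settings tried, with log2 fold changes between -0.47 and -0.41.

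Fcgr3 (NM_010188, 5 exons, chr1:171051175-171059403, minus strand), the low-affinity activating receptor, had about the same level in both groups. Its control libraries held 813.2, 798.8 and 794.4 CPM and its AclyM-KO libraries 786.0, 738.9 and 825.2 CPM. The AclyM-KO values thus fell on both sides of the control values. The log2 fold change was -0.03 with a 95% interval of -0.17 to 0.11 (adjusted p = 0.786), and it turned to 0.01 without AclyM-KO replicate 2.

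Fcgr1 (NM_010186, 6 exons, chr3:96282909-96293969, minus strand), the high-affinity receptor that binds monomeric IgG, split within the AclyM-KO group. The control libraries lay close together at 155.2, 150.8 and 155.9 CPM. AclyM-KO replicates 1 and 3 were lower at 117.1 and 133.4 CPM, whereas replicate 2 had 157.3 CPM, above every control library. The fold change over all 6 libraries was -0.18 (standard error 0.095, adjusted p = 0.267) and did not pass. Without AclyM-KO replicate 2 it was -0.30 (adjusted p = 0.00202). With all 6 libraries in limma-voom with sample weights it was -0.25 and also passed (adjusted p = 0.0106). The call thus depended on this library and on how the libraries were weighted.

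Fcgr2b (NM_001077189, 8 exons, chr1:170960558-170976071, minus strand), the inhibitory receptor whose ITIM is shown above, had 289.1, 248.8 and 249.7 CPM in control libraries. Its AclyM-KO libraries held 250.2, 170.9 and 232.0 CPM. AclyM-KO replicate 1 lay within the control range and replicate 2 far below it. The log2 fold change was -0.27 (standard error 0.121, 95% interval -0.54 to -0.01, adjusted p = 0.170). It was -0.12 without AclyM-KO replicate 2 and -0.39 without AclyM-KO replicate 1, so its size depended on which library was left out.

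The promoter windows of Fcgr4 and Fcgr3 are shown because these neighbouring genes on chromosome 1 gave the most and one of the least changed values among the receptors. Both windows come from RefSeq (GRCm38.p6) and span 300 bases, 250 before the transcription start and 50 from it onward. Capitals mark GAGGAA or its reverse complement TTCCTC, the core letters of sites for the myeloid factor PU.1, searched on both strands. The Fcgr4 window (chr1:171018676-171018975, plus strand) holds it once, starting at position -22. Of 2 Fcgr3 windows, the one shown (chr1:171059354-171059653, minus strand) holds it once, starting at position -6, and the other, which is set from a nearby start, holds the same letters at position -15.
Fcgr4 promoter: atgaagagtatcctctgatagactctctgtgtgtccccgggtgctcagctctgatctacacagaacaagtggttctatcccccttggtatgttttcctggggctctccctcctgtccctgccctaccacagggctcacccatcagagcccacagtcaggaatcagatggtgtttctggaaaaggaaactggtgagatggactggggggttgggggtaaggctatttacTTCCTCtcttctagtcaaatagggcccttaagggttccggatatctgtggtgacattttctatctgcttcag
Fcgr3 promoter: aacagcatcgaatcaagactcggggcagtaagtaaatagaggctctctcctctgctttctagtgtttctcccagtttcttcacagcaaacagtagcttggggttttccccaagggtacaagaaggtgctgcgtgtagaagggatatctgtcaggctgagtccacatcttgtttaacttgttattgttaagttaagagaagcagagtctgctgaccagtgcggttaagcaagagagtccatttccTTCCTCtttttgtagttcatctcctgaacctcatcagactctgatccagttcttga
Windows were found for 7 of the 9 genes, all but Lyn and Tyrobp. These letters also occurred in the windows of Fcgr1 (position -55) and Trem2 (position -40) and in 1 of 2 Syk windows (position -9), and in 28.3% of all 32851 promoter windows of the same length. The letters TTCNNNGAA, the pattern bound by STAT factors downstream of interferon, were present once among these windows, in that of Fcgr1 at position -109, and in 8.30% of all windows. A match of letters is a description and shows no binding.

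Fcgr2b and Fcgr3 share sequence, which limits how reads can be told apart. Their coding sequences aligned over 509 bases at 96.5% identity, in the part that encodes the IgG-binding domains. Of all 50-base windows of the Fcgr2b coding sequence, 17.1% were present letter for letter in Fcgr3, and 22.1% of those of Fcgr3 were present in Fcgr2b. The other receptor pairs shared no such window. The longest shared stretch is 129 bases and is shown because reads within it have no unique origin. It spans exons 3 and 4 of both genes, at chr1:170966674-170968081 in Fcgr2b and chr1:171054167-171057792 in Fcgr3 (GRCm38, minus strand, introns left out).
Fcgr2b and Fcgr3, shared stretch: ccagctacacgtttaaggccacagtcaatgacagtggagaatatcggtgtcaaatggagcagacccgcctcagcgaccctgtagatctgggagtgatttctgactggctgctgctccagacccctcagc
The authors kept only alignments above a minimum mapping quality, so levels of both genes are uncertain in this part, and how many of their reads were lost was not tested.

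Levels between genes were compared per length, as read counts scaled to transcript length and library total (RPKM). Fcgr3 had the highest receptor level in both groups at 338.8 ± 2.66 RPKM in control and 339.4 ± 13.6 RPKM in AclyM-KO macrophages. Fcgr2b followed with 96.5 ± 8.03 and 82.0 ± 14.6 RPKM, then Fcgr4 with 54.2 ± 1.60 and 40.8 ± 0.340 RPKM, and Fcgr1 was lowest with 33.8 ± 0.746 and 30.7 ± 5.02 RPKM (SD, n = 3 throughout). Fcgr4 thus made up 10.4%, 10.3% and 10.3% of the summed RPKM of the 4 receptors in control libraries and 8.17%, 8.65% and 8.06% in AclyM-KO libraries. The share of Fcgr3 was 63.6%, 65.5% and 65.2% in control and 67.8%, 69.6% and 69.2% in AclyM-KO libraries. The groups did not overlap in the shares of Fcgr4 and Fcgr3. They overlapped in those of Fcgr2b (18.4% ± 1.09 and 16.6% ± 2.41) and Fcgr1 (6.47% ± 0.172 and 6.26% ± 1.29). Shares of the same sum depend on each other, and the RPKM of Fcgr3 itself overlapped between the groups.

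**Figure D2:**
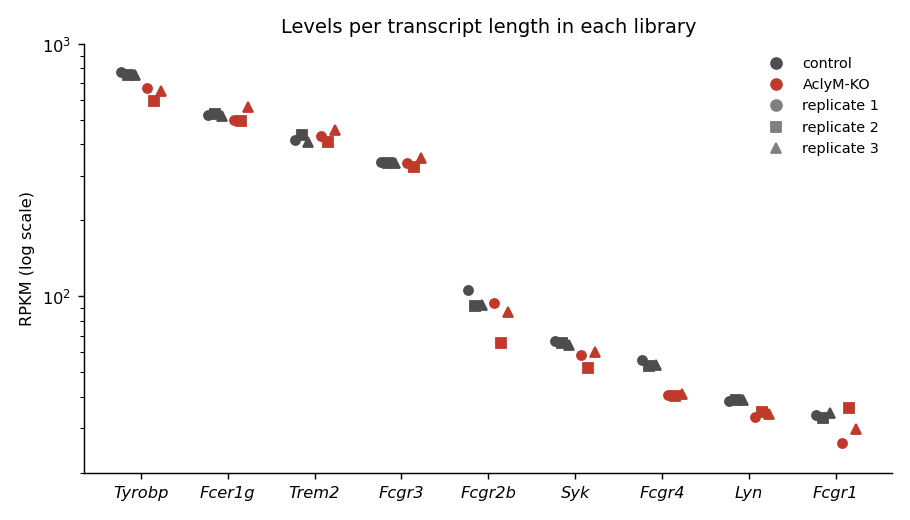
RPKM on a log axis for the 9 genes, ordered by the control mean, with 1 point per library (grey, control, red, AclyM-KO, symbols by replicate number). The order from Tyrobp down to Fcgr1 is the same in both groups, and the ranges of neighbouring genes overlap only for Lyn and Fcgr1 in AclyM-KO macrophages.

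The ratio of activating to inhibitory receptor, the summed RPKM of Fcgr1, Fcgr3 and Fcgr4 over that of Fcgr2b, sets opposing signals of IgG complexes against each other. It was 4.08, 4.63 and 4.61 in control libraries and 4.32, 6.13 and 4.91 in AclyM-KO libraries. The AclyM-KO range included control values, and its upper end came from replicate 2. The log2 ratio differed by 0.19, and a two-sided exact permutation test gave p = 0.40, where 3 libraries against 3 can give no p below 0.10. Without AclyM-KO replicate 2 the difference was 0.06. No shift of this ratio was detectable with these libraries.

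The signalling chains gave different values. Tyrobp (NM_011662, 5 exons, chr7:30413788-30417577, plus strand) had the highest level per length of all 9 genes, 762.3 ± 10.9 RPKM in control and 638.9 ± 38.6 RPKM in AclyM-KO macrophages. Its control libraries held 772.1, 751.8 and 743.2 CPM. Its AclyM-KO libraries held 652.1, 565.3 and 635.1 CPM, all below the control libraries. The log2 fold change of -0.29 (standard error 0.069, 95% interval -0.44 to -0.14) passed with an adjusted p of 0.0186. It was -0.23 (adjusted p = 0.00158) without AclyM-KO replicate 2. With only 2 control libraries the fold change stayed between -0.30 and -0.28 but no longer passed, with an adjusted p of 0.0986, 0.0774 and 0.0802 without control replicates 1, 2 and 3.

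Fcer1g (NM_010185, 5 exons, chr1:171229572-171234349, minus strand), the chain that the activating Fc receptors need to reach the cell surface, had 607.0, 614.0 and 592.7 CPM in control libraries. Its AclyM-KO libraries held 565.4, 546.2 and 642.8 CPM, below the control range in replicates 1 and 2 and above it in replicate 3. Fcer1g differed by -0.05 on the log2 scale (95% interval -0.21 to 0.11, adjusted p = 0.722) and 0.00 without AclyM-KO replicate 2. Set against its receptors, the RPKM of Fcer1g was 1.21, 1.25 and 1.21 times the sum of Fcgr1, Fcgr3 and Fcgr4 in control libraries and 1.23, 1.23 and 1.33 times in AclyM-KO libraries. This ratio differed by 0.04 on the log2 scale (two-sided exact permutation test, p = 0.50).

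Trem2 (NM_001272078, 5 exons, chr17:48346488-48352273, plus strand), which signals through Tyrobp, had 776.3, 811.5 and 756.6 CPM in control libraries and 786.5, 723.2 and 835.3 CPM in AclyM-KO libraries. Of the AclyM-KO libraries, replicate 1 lay within the control range, replicate 2 below and replicate 3 above it. The fitted log2 change was 0.00 (standard error 0.070, 95% interval -0.15 to 0.15, adjusted p = 0.9998), and 0.06 without AclyM-KO replicate 2. The receptor and its adaptor therefore gave different values: Trem2 RPKM over Tyrobp RPKM was 0.537, 0.577 and 0.544 in control libraries and 0.644, 0.683 and 0.702 in AclyM-KO libraries. All AclyM-KO ratios were above all control ratios (0.552 ± 0.0211 and 0.677 ± 0.0297, SD, n = 3 each). The difference of 0.29 on the log2 scale had p = 0.10 in the two-sided exact permutation test, the smallest p that this design can give. Leaving out any 1 library gave differences between 0.26 and 0.33.

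**Figure D3:**
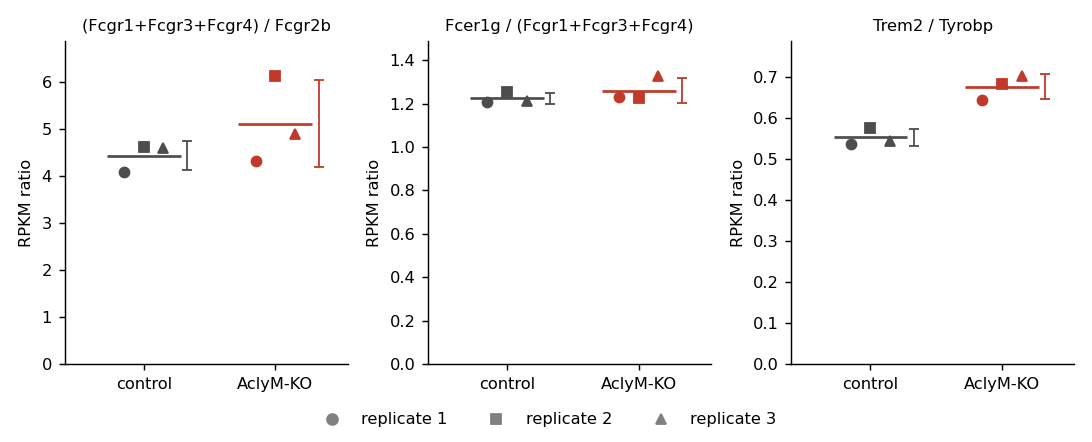
Ratios of RPKM per library on linear axes from 0, with group means (lines) and SD (bars, n = 3). From left to right, activating receptors over Fcgr2b, Fcer1g over activating receptors, and Trem2 over Tyrobp. The groups overlap in the first and second ratio and are apart in the third, where control libraries reach 0.577 and AclyM-KO libraries start at 0.644.

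Both kinases were lower in every AclyM-KO library, and only Lyn passed. Lyn (NM_001111096, 13 exons, chr4:3678115-3791612, plus strand), a Src family kinase that phosphorylates ITAMs and also the ITIMs of inhibitory receptors, had 234.9, 237.1 and 234.0 CPM in control libraries. Its AclyM-KO libraries held 198.0, 202.5 and 204.5 CPM. The libraries of each group lay within a few CPM of each other, and the groups were well apart. The log2 fold change was -0.22 (standard error 0.060, 95% interval -0.35 to -0.09, adjusted p = 0.0333). Its adjusted p rose to between 0.127 and 0.137 without a control library and to 0.0608 and 0.0616 without AclyM-KO replicates 1 and 3, at fold changes between -0.23 and -0.21, and to 0.0693 with libraries scaled by total count only. Of the 3462 exonic bases of Lyn, 248 overlap Gm26857 on the opposite strand. The counting is stated to use default settings, and the sources used here do not name the strand that these count.

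Syk (NM_001198977, 14 exons, chr13:52583173-52648792, plus strand), the kinase that binds phosphorylated ITAMs, had 629.6, 619.8 and 599.6 CPM in control libraries. Its AclyM-KO libraries held 539.9, 468.7 and 560.5 CPM. All 3 were below the control libraries, with replicate 2 lowest. The log2 fold change of -0.24 (standard error 0.075, 95% interval -0.40 to -0.07) just missed the threshold with an adjusted p of 0.0595. Without AclyM-KO replicate 2 it was -0.16 and passed (adjusted p = 0.0218). When all transcript rows were fitted in edgeR, the transcript shown did not pass (adjusted p = 0.0524) and the other Syk transcript did (0.0491). In level per length, Syk was above Lyn in both groups, with 65.4 ± 1.18 and 56.9 ± 4.37 RPKM compared with 38.7 ± 0.242 and 34.0 ± 0.795 RPKM.

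**Figure D4:**
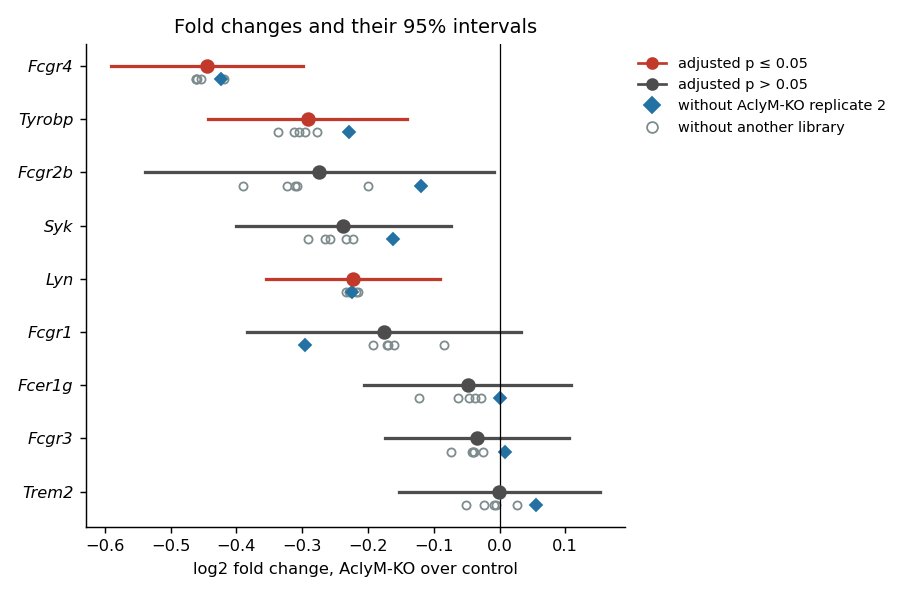
Log2 fold change (AclyM-KO over control) of the 9 genes with 95% intervals from edgeR, red where the adjusted p was 0.05 or less. Open circles and blue diamonds below each interval are the values with 1 library left out, the diamonds without AclyM-KO replicate 2. Fcgr4 and Lyn move little, whereas Fcgr1 and Fcgr2b move in opposite directions when AclyM-KO replicate 2 is left out, to -0.30 and -0.12.

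Transcripts of 1 gene are counted separately in the table, and the longer row of Fcgr2b holds coding bases that the shorter one lacks. These are exon 6 of 8, 141 bases at chr1:170963325-170963465 (minus strand), which lies before the tail exon with the ITIM and gives a protein of 340 instead of 293 residues. The exon is shown in capitals, with 12 flanking coding bases on each side, because these bases alone separate the isoforms of the inhibitory receptor.
Fcgr2b exon 6: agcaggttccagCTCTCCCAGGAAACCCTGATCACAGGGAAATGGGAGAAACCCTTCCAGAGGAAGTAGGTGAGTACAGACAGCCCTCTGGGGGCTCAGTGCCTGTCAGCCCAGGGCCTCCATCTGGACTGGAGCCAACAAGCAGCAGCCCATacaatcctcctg
The long Fcgr2b row exceeded the short one by 41, 54 and 65 counts in control libraries and by 61, 85 and 63 counts in AclyM-KO libraries. Per base, this was 13.0%, 16.4% and 24.0% of the density over the rest of the transcript in control and 21.6%, 19.1% and 24.2% in AclyM-KO libraries. The counts on this exon were thus sparse in both groups, which overlapped, and no difference in isoform balance was detectable at these counts.

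The wider pathway was described with 7 lists of 124 genes in all, the 9 genes above left out. Of these, 106 were tested, 9 were higher and 12 lower in AclyM-KO macrophages, which is 8.49% and 11.3% beside 6.70% and 5.65% over all genes. Their median log2 fold change was 0.01 and 49.1% were negative. Changes went in both directions, and the counts moved with scaling and with single libraries, as those over all genes did. With libraries scaled by total count only, 14 were higher and 11 lower, beside 8.01% and 4.43% of all genes tested. Without control replicates 1, 2 and 3, 4, 5 and 5 were higher and 6, 7 and 5 lower. Over all genes, 3.13%, 3.25% and 3.31% were then higher and 2.02%, 2.44% and 2.10% lower. Without AclyM-KO replicate 2, 19 were higher and 16 lower, beside 9.56% and 8.92% of all genes tested. The counts of single lists below come from the same fits.

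Of the other Fc receptors, 4 of 13 were tested and 1 was lower. Fcgrt, the neonatal Fc receptor that rescues IgG and albumin from degradation, fell from 231.5 ± 22.3 to 134.0 ± 35.8 CPM (log2 fold change -0.80, standard error 0.158, adjusted p = 0.00735). The median of the list was 0.16, and without AclyM-KO replicate 2 a further 2 genes were higher. A list of further activating receptors and integrins, most of which signal through Fcer1g or Tyrobp, also held Clec7a, which reaches Syk through a motif in its own tail, and the ITIM receptor Pirb. Of its genes, 13 of 17 were tested, with 2 higher, 2 lower and a median of 0.08. Clec7a (Dectin-1), which senses fungal beta-glucan, fell from 343.4 to 247.8 CPM (log2 fold change -0.47, adjusted p = 0.00186), and Clec4n (Dectin-2), which uses Fcer1g, fell by 0.41 on the log2 scale (adjusted p = 0.0243). Clec4d, a C-type lectin receptor of the same gene cluster, rose from 318.3 to 418.7 CPM (0.40, adjusted p = 0.00478), and Pira2, an activating immunoglobulin-like receptor with close paralogs, rose by 0.45 (adjusted p = 0.00512). Only 1 gene of this list was lower without control replicate 1 or 3.

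Of 10 Src family kinases and regulators, 8 were tested. Their median was -0.11, with 0 higher and 2 lower. Of these, Fgr, a myeloid member, fell from 3.77 to 2.10 CPM (log2 fold change -0.87, adjusted p = 0.0216), at 25 to 49 counts per library. Without control replicate 1, 2 or 3, the count of lower genes in this list was 0. Of the 28 adaptors, lipid enzymes and guanine exchange factors downstream of Syk, all were tested. Their median was -0.02, with 2 higher and 3 lower. Plcg1, a phospholipase C, fell by 0.46 (adjusted p = 0.0261, with exons that overlap Zhx3 and Gm27206 on the opposite strand), Vav2, a guanine exchange factor, by 0.43 (adjusted p = 0.0151) and Pik3r1, the regulatory subunit of phosphoinositide 3-kinase, by 0.24 (adjusted p = 0.0290). The adaptor Lat2 rose from 218.3 to 277.2 CPM (0.35, adjusted p = 0.0162), and its relative Lat rose from 0.913 to 2.20 CPM (1.24, adjusted p = 0.0231), at 9 to 50 counts per library. The counts of this list changed with single libraries. They were 0 higher and 0 lower without control replicate 1, 1 and 1 without control replicate 2, and 1 and 0 without control replicate 3. They were 1 and 3 without AclyM-KO replicate 1, 5 and 4 without AclyM-KO replicate 2, and 2 and 1 without AclyM-KO replicate 3. Calls over all genes also changed, from 1416 to 598, 658 and 628 without control replicates 1, 2 and 3. Without AclyM-KO replicates 1, 2 and 3, calls over all genes were 1642, 2136 and 1051.

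Of the actin and oxidase genes that act at the phagocytic cup, 27 of 28 were tested. Their median was 0.04, with 2 higher and 1 lower. Cybb, the membrane subunit of the phagocyte NADPH oxidase, fell from 1171 ± 12.4 to 915.0 ± 41.7 CPM (log2 fold change -0.36, adjusted p = 0.00423). The Arp2/3 complex subunits Arpc1b (0.26, adjusted p = 0.0229) and Actr2 (0.29, adjusted p = 0.0468) rose. The count of higher genes in this list was 0 without control replicate 1, 2 or 3, 4 without AclyM-KO replicate 1, 3 without AclyM-KO replicate 2 and 1 without AclyM-KO replicate 3, whereas the count of lower genes was 1 in each case. Of 22 inhibitory receptors, phosphatases and ubiquitin ligases, all were tested. Their median was 0.02, with 3 higher and 2 lower. The ITIM receptor Lilrb4a rose from 410.8 to 653.7 CPM (0.67, adjusted p = 0.00266), though 1326 of its 1381 exonic bases overlap Gm49339 on the same strand. Cd33, a sialic acid receptor, rose by 0.27 (adjusted p = 0.0365), whereas Cd300a, a lipid-sensing ITIM receptor, fell from 357.3 to 232.0 CPM (-0.63, adjusted p = 0.00170). The ubiquitin ligases that mark ITAM signalling complexes for degradation moved apart, with Cblb higher (0.41, adjusted p = 0.00303) and Cbl lower (-0.40, adjusted p = 0.0108). The count of lower genes was 1 without control replicate 2 or 3, and that of higher genes was 6 without AclyM-KO replicate 2. Of 6 Trem2 ligands and shedding enzymes, 4 were tested and 1 was lower. Apoe, an apolipoprotein that Trem2 binds, fell from 3470 ± 156 to 1735 ± 307.5 CPM (log2 fold change -1.0, standard error 0.110, adjusted p = 2.26e-04), and without AclyM-KO replicate 2 the count of lower genes was 2.

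**Figure D5:**
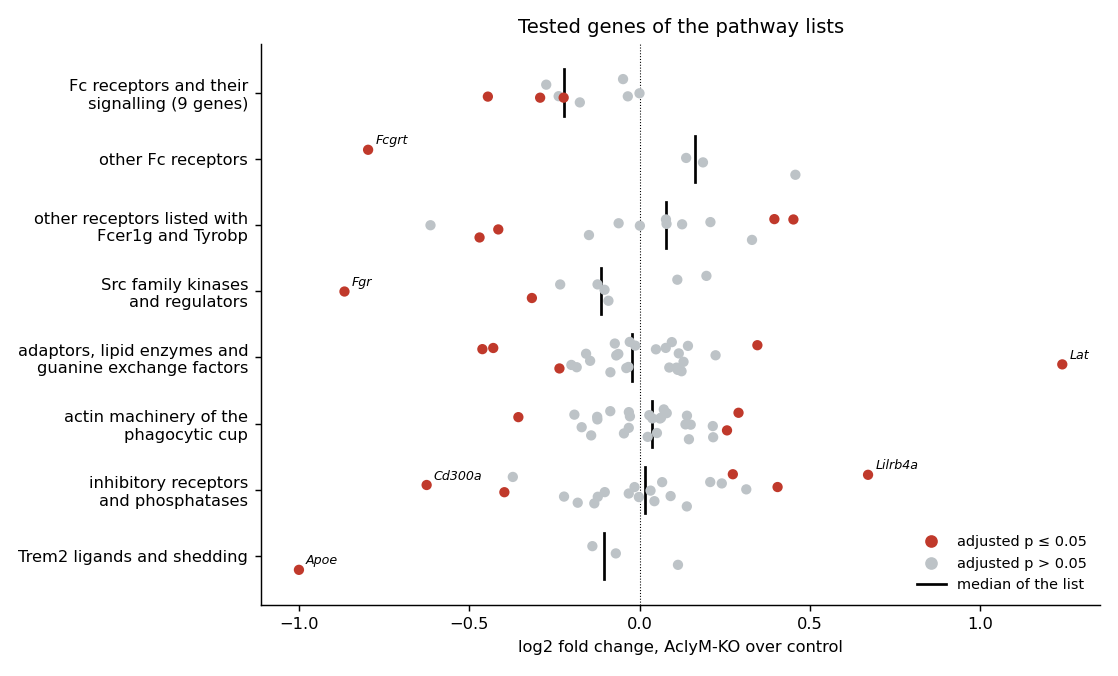
Log2 fold change (AclyM-KO over control) of every tested gene in the 9-gene group and in the 7 pathway lists, 1 point per gene, red where the adjusted p was 0.05 or less, with the median of each list as a black bar. Genes past the threshold with a fold change above 0.6 in either direction are named. The 3 red points of the 9-gene group lie below 0, while 9 red points of the other lists lie above 0 and 12 below.

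Markers of cell types were read beside these values. The macrophage markers Adgre1, Cd68 and Itgam were expressed at 853 to 2426 CPM on average in both groups. Of the 4649 exonic bases of Itgam, 3450 overlap Gm49368 on the same strand. Of 8 macrophage markers, 3 were lower in AclyM-KO libraries. These were Csf1r (log2 fold change -0.48), Mertk (-0.67) and Lyz2 (-1.05), the last being the gene into which LysMcre is inserted, and the summed level of the list was 21670 to 22660 CPM in control and 12660 to 15290 CPM in AclyM-KO libraries. Lyz2 held the most of this sum and of its difference, with 13310 CPM in control and 6437 CPM in AclyM-KO macrophages on average, and the list also counts Fcgr1. Of 8 proliferation markers, 7 were higher and 0 lower, with sums of 591.6 to 679.5 CPM and 810.7 to 1143 CPM. Their part in the lower values of Fcgr4, Tyrobp and Lyn was not tested. Markers of other cells that carry Fc receptors were also read, and their part in the values above was not tested. Summed neutrophil markers were at 49.7 to 52.2 CPM in control and 74.1 to 79.9 CPM in AclyM-KO libraries, of which Mmp8 held the most and rose (1.20), while Ly6g was at or near 0. The neutrophil markers S100a8 (-0.20), Ngp (-0.11), S100a9 (0.15) and Ltf (0.31) did not pass. Mast cell and basophil markers summed to 9.57 to 10.6 and 19.0 to 24.3 CPM, almost all from Kit (1.07, higher), with Fcer1a, Ms4a2 and Tpsab1 at 0 in every library. B cell markers summed to at most 4.48 CPM with Pax5 at 0, T and NK cell markers to at most 0.455 CPM with Cd3e and Cd3g at 0, and stromal markers to at most 1.42 CPM. Dendritic cell markers summed to 14.9 to 20.3 and 21.4 to 30.6 CPM, nearly all from Itgax, and erythroid and platelet markers to 90.8 to 106.7 and 116.0 to 145.7 CPM, nearly all from Pf4, which macrophages also express.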

How the data were processed

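Per the study's methods, RNA was DNase-treated, made into strand-specific libraries with a KAPA mRNA HyperPrep kit and sequenced on an Illumina HiSeq instrument. The submitters' processing notes name CASAVA 1.8.2 and STAR 2.5.2b, and the build was mm10 (GRCm38). The authors deposited raw counts per RefSeq transcript, made with HOMER2 at default settings after a filter on mapping quality. The RefSeq release, and the strand that these settings count, are not given in the sources used here. Of 12 value columns, 6 have no sample in the labels used here and were not used.

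The 35745 transcripts were assigned to 24562 symbols (35440 by the RefSeq gene table, 188 by GENCODE M21, 117 unnamed), and the transcript with the highest total represented each gene. The main test used edgeR 4.0.16 in R 4.3.3 (filterByExpr, TMM, genotype as only factor, biological coefficient of variation 8.91%), with limma 3.58.1 (voom) and DESeq2 1.42.0 as alternatives. CPM used TMM library sizes. RPKM used GENCODE M21 exon lengths and the total over all transcripts. Ratios were tested by exact permutation (scipy 1.17.1).

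The 9 genes and all lists were chosen with earlier results of these data known. Named were the 9 genes, up to 4 genes per list and direction by smallest adjusted p, Acly, and the 5 genes most like the group. Marker lists were described by counts and sums, with the genes behind them named after their values were seen. Alternatives were other size factors, filters and tools, the replicate block, each library left out, other transcript rows and a threshold of 0.01. Thinning of AclyM-KO replicate 2 to the median total of the others was added after seeing the data. Results that need certain withheld items are left out, although such genes stay in the counts.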

Additional observations from a re-analysis of the deposited data

How the results depend on the processing

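No gene of the 9 was higher under any of 17 alternatives. The count of lower genes, 3, became 5 with the replicate block and with limma-voom, 4 with no filter on low counts (Syk added, adjusted p = 0.0329), 2 with total counts only (Lyn lost, 0.0693), 1 at a threshold of 0.01, and 1 to 5 with a library left out (1 without any control library, 5 without AclyM-KO replicate 2). Deviations from the group means correlated at 0.089, 0.108 and -0.046 between libraries of the same number, and at -0.1294 to 0.0665 otherwise. With 3 libraries a group, these values cannot decide whether the replicate numbers pair the libraries. With the block, Fcgr2b (adjusted p = 0.0400) and Syk (0.0480) passed too, and calls over all genes went from 1416 to 1583. With limma-voom, Fcgr1 (adjusted p = 0.0106) and Syk (0.0200) passed too. Fold changes near 0 changed sign. Trem2 was 0.034 with total counts only, 0.0016 with at least 10 counts in every library, 0.0474 with limma-voom, 0.0075 with AclyM-KO replicate 2 thinned, 0.0041 with all transcript rows, and -0.0508 to 0.0554 with a library left out. Fcgr3 and Fcer1g were 0.0028 and 0.0011 with limma-voom, and -0.0739 to 0.0084 and -0.122 to 0.001 with a library left out. Of the pathway genes, 9 higher became 14 with total counts only (beside 11 lower), 19 with limma-voom, 4 at 0.01, and 4 to 19 with a library left out, and 12 lower became 5 at 0.01 and 5 to 16 with a library left out. Over all genes, calls were 557 at 0.01, 2187 with limma-voom, and 598 to 2136 with a library left out. Total counts only split them into 919 higher and 508 lower instead of 768 and 648. The order of levels was the same under both alternatives run for it. The log2 difference of the activating to inhibitory ratio ran from 0.06 to 0.31 with a library left out, that of Fcer1g to its receptors from 0.00 to 0.06, and that of Trem2 to Tyrobp from 0.26 to 0.33. The causes were not tested. With 3 libraries a group, a permutation test of 1 value cannot pass 0.05, and AclyM-KO replicate 2 held 2.18 times the mean depth of the others.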

Other observations

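The genes outside the group whose log2 CPM over the 6 libraries ran closest to the mean of the 9 members (each centred on its own mean, in which the control libraries stood at 0.13, 0.09 and 0.07 and the AclyM-KO libraries at -0.09, -0.18 and -0.03) were Xrcc1 (Pearson r 0.9955), Scn3b (0.9951), Gm13710 (0.9948), Card6 (0.9936) and Os9 (0.9921). These are descriptions over 6 libraries that share 2 groups, the highest among 11470 genes. Their log2 fold changes were -0.51, -0.34, -1.10, -0.57 and -0.22, of which those of Xrcc1 (adjusted p = 0.00954), Gm13710 (0.00738) and Card6 (0.0160) passed and those of Scn3b (0.0747) and Os9 (0.0563) did not.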
